A study of Bubalus bubalis with 12 samples.

Results

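The sodium and proton pump ATPases are represented here by 9 genes of the 34037 in the deposited table, chosen as the rows whose gene name is one of the 9 names. They are ATP1B1, ATP1B3 and FXYD3 of the Na+/K+-ATPase, ATP12A of the H+/K+-ATPases, and ATP6V1A, ATP6V1B2, ATP6V1E1, ATP6V0A1 and ATP6V0D1 of the vacuolar H+-ATPase (V-ATPase). The rule that picked the rows used names only and no measured value, but the names were chosen with earlier results of these data known. Ruminal wall was taken at slaughter from 12 adult, multiparous Italian Mediterranean dairy buffaloes kept on 1 commercial farm. The 6 control animals were fed a total mixed ration (TMR), while for the 6 treated animals about 30% of the diet was green ryegrass mixed into a TMR. The treated ration also held more forage relative to concentrate than the control ration. It had less corn silage and alfalfa hay, more corn meal and fat, and no soybean meal, calcium carbonate or added vitamins. Green feed and these differences cannot be told apart. The libraries were made from total RNA, 1 for each animal, and the comparison asks whether the green feed changed transcript levels in the ruminal wall.

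The ruminal epithelium takes up sodium, short-chain fatty acids and their protons from the rumen fluid. The Na+/K+-ATPase is a P-type pump that exports sodium and imports potassium in exchange for ATP, and its activity in the basal and intermediate epithelial layers maintains the gradient for sodium uptake. Its catalytic chain is joined by a glycosylated beta chain, which is needed for the pump to reach the membrane, and by a small FXYD protein that modulates its kinetics. The V-ATPase is a rotary pump, in which the cytosolic V1 sector hydrolyses ATP and the membrane V0 sector conducts protons into lysosomes, endosomes or out of the cell. H+/K+-ATPases exchange protons for potassium, and ATP12A is the catalytic chain of the non-gastric form.

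Levels are FPKM, in which the reads of a gene are divided by its length and by the depth of the library, so that genes of different length can be compared. Between 10531541 and 12948372 fragments were counted per animal. The epithelial markers (9 of 10 matched) summed to 3243 to 5164 FPKM in the control and 3394 to 5941 FPKM in the treated animals. KRT5 had means of 1436 and 1550 FPKM in the control and treated groups. The means of DSG3 (700 and 671 FPKM) and KRT4 (0.622 and 0.366 FPKM) were lower in the treated group, and those of the other matched markers higher. All 11 smooth muscle and fibroblast markers were detected and summed to 51.9 to 269 and 19.8 to 166 FPKM. Each of them had a lower mean in the treated group, such as LUM with 34.8 FPKM in the control and 19.0 FPKM in the treated animals. The mean log2 FPKM of these 11 markers was lowest in treated replicates 1 and 2. Macrophage markers summed to 4.65 to 12.9 FPKM in the control and 3.94 to 9.48 FPKM in the treated animals, endothelial markers to 8.10 to 27.0 and 5.42 to 28.4 FPKM, and T and B cell markers to 10.6 to 22.5 and 7.91 to 21.4 FPKM. The parietal cell markers were at or near 0, with GIF at 0 in every animal, and of the red blood cell markers only ALAS2 was matched, at 0. On the first principal component, with 26.9% of the variance of the tested genes, control replicate 6 (score 50.3) and treated replicate 6 (73.5) stood apart from the other animals, which lay between -36.9 and 10.6. These 2 animals also had the lowest mean log2 FPKM of the epithelial markers, 6.18 in both, against 6.58 to 7.56 in the others, and its part in their position was not tested. Results are therefore also given without both animals where this changes them. In bulk tissue, fewer cells of a type and less RNA per cell cannot be told apart.

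No diet difference of a pump gene passed the test. Of the 12642 genes tested, limma gave a nominal p-value below 0.05 to 157 (1.24%), and after adjustment over all genes tested the threshold of 0.05 was passed by 0 (0%). Where no gene differs, evenly spread p-values put a share of 0.05 below the nominal threshold, more than was found. Of the 8 members tested, 0 had a nominal p-value below 0.05, and 0 had an adjusted one. A second fit with the same package, voom on reads worked out from the FPKM, also gave 0 of 8 at a nominal p-value below 0.05. In 0 of the 9 genes were the animals of the groups separated without overlap, compared with 0.0554% of all genes tested. ATP12A did not reach the level required for testing across genes. The fitted log2 differences of the other 8 lay between -0.15 and 0.06, and the member with the smallest p-value was ATP6V1A.

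**Figure D1:**
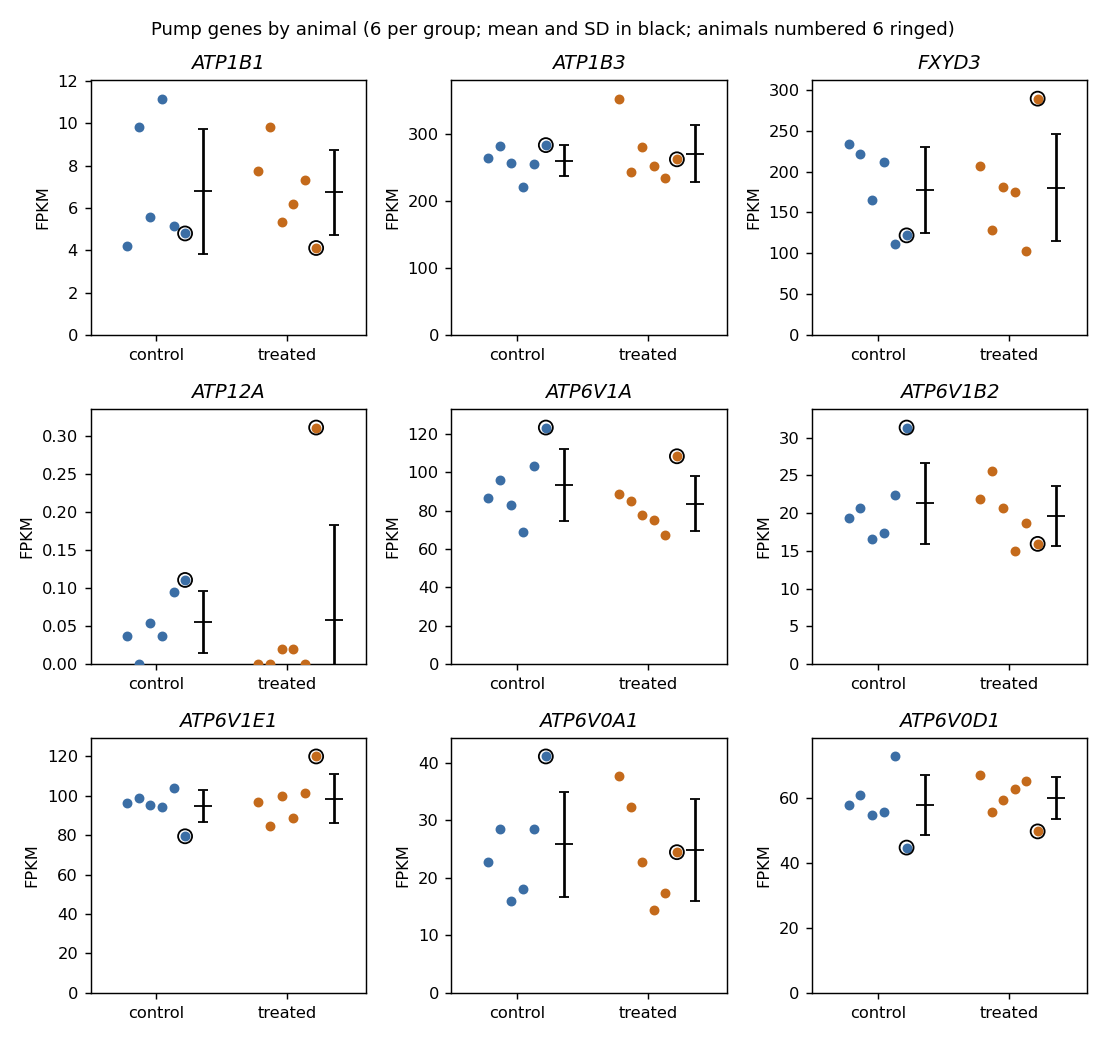
FPKM of the 9 pump genes (y axes, each starting at 0) in the 6 control and 6 treated buffaloes, 1 point per animal, with the mean and SD in black and the animals numbered 6 ringed. The lower SD bar of ATP12A is cut at 0. The groups overlap in every panel, and ATP12A reaches at most 0.312 FPKM.

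The beta chain ATP1B3 had the highest level of the 9 genes. It was measured at 264, 282, 257, 221, 255 and 284 FPKM in control replicates 1 to 6. The treated replicates 1 to 6 had 353, 244, 281, 252, 235 and 263 FPKM. The highest value was that of treated replicate 1, and the other treated animals lay inside the control range. The means were 260.5 ± 22.8 FPKM (SD, n = 6) in the control and 271 ± 43.2 FPKM (SD, n = 6) in the treated group. The log2 difference was 0.05 with a standard error of 0.12, and its 95% interval ran from -0.20 to 0.30 (limma, adjusted p = 0.9997, two-sided exact permutation p = 0.688). This interval leaves room for a change from 0.87-fold to 1.23-fold.

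ATP1B1, the beta chain of most transporting epithelia, was far lower. It had 4.20, 9.81, 5.57, 11.2, 5.15 and 4.80 FPKM in control replicates 1 to 6. In treated replicates 1 to 6 it had 7.73, 9.81, 5.33, 6.17, 7.30 and 4.11 FPKM. Control replicates 2 and 4 and treated replicate 2 were the highest animals, so that the spread was wide in both groups. The means were 6.78 ± 2.93 and 6.74 ± 2.00 FPKM (SD, n = 6 each), and the log2 difference of 0.04 had a standard error of 0.27 and a 95% interval from -0.54 to 0.62 (limma, adjusted p = 0.9997, exact permutation p = 0.896). The mean FPKM was thus slightly lower and the mean of the log2 values slightly higher in the treated group, both by far less than the spread between animals. ATP1B1 was represented by 112 to 314 reads per animal, against 4354 to 6612 for ATP1B3.

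In every animal, ATP1B3 supplied between 95.2% and 98.5% of the summed FPKM of the 4 genes of the beta chain family. Its mean share was 97.4% ± 1.26 (SD, n = 6) in the control and 97.5% ± 0.847 (SD, n = 6) in the treated group. ATP1B3 exceeded ATP1B1 by 19.8-fold to 63.9-fold within single animals. ATP1B2 and ATP1B4, best known from nerve and muscle, had means of 0.039 FPKM and 0.0011 FPKM over all animals.

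FXYD3, also known as Mat-8, is the FXYD protein of several surface epithelia and of carcinomas. Control replicates 1 to 6 had 233, 221, 166, 212, 111 and 122 FPKM. Treated replicates 1 to 6 had 207, 128, 181, 174, 103 and 289 FPKM. Low levels were found in both groups, in control replicates 5 and 6 and in treated replicates 2 and 5, and the highest level was that of treated replicate 6. The means of 177 ± 52.6 and 180.5 ± 65.3 FPKM (SD, n = 6 each) gave a log2 difference of 0.00 with a standard error of 0.25, and a 95% interval from -0.54 to 0.55 (limma, adjusted p = 0.9997, exact permutation p = 0.994). Without both animals numbered 6, this difference was -0.24 with a standard error of 0.23. Of the summed FPKM of the 6 FXYD genes that could be matched, FXYD3 supplied 96.1% to 99.1% in every animal. FXYD5, known as dysadherin, was next at a mean of 3.68 FPKM, and FXYD1, FXYD2, FXYD4 and FXYD7 were between 0.0063 and 0.098 FPKM. FXYD3, LGI4, FXYD1, FXYD7 and FXYD5 are neighbours in this order in the RefSeq annotation of the NDDB_SH_1 assembly. FXYD6 had no match and is not analysed here.

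**Figure D2:**
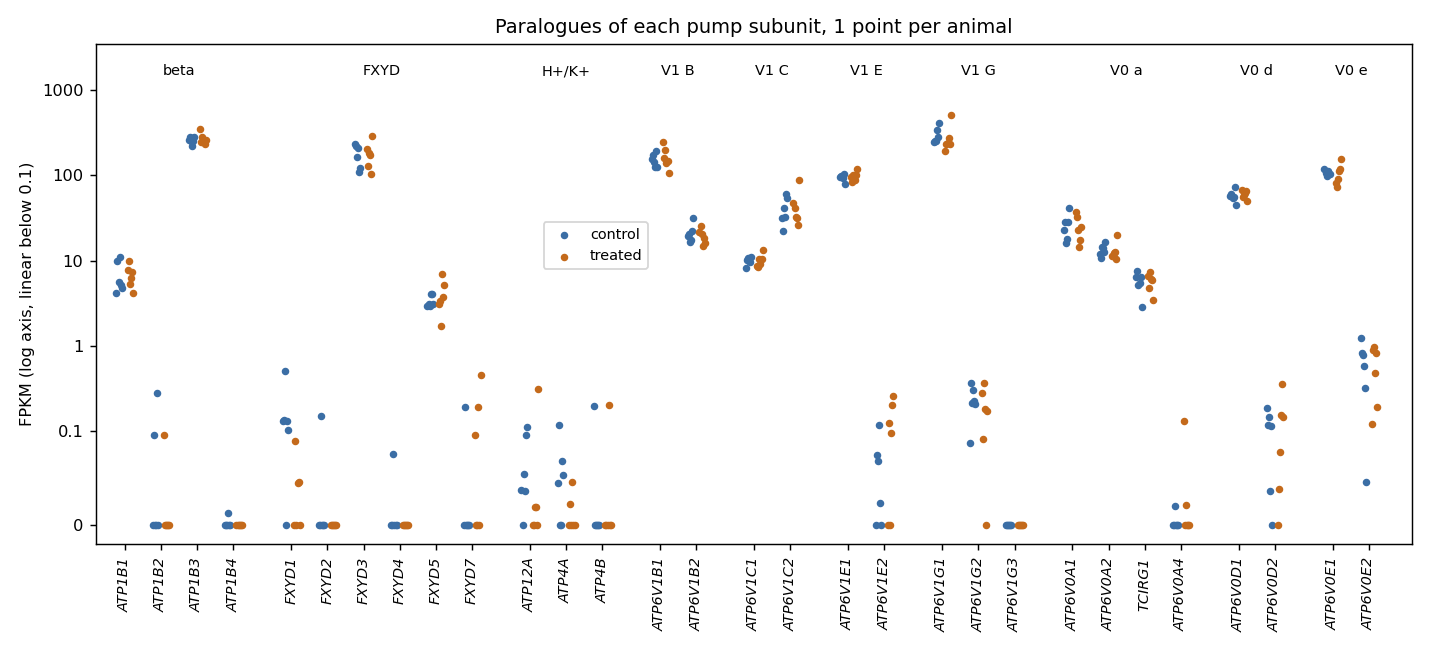
FPKM (y axis, log scale and linear below 0.1) of the genes encoding each pump subunit, with control animals in blue and treated animals in orange, 1 point per animal. Within most subunits 1 gene lies far above its paralogues, as ATP1B3, FXYD3, ATP6V1E1 and ATP6V0D1 do, while of the V0 a subunits ATP6V0A1, ATP6V0A2 and TCIRG1 are all detected in every animal.

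The H+/K+-ATPase among the 9 genes was near 0. ATP12A had 2, 0, 3, 2, 5 and 5 reads in control replicates 1 to 6 and 0, 0, 1, 1, 0 and 17 reads in treated replicates 1 to 6. Only control replicates 5 and 6 and treated replicate 6 had more than 3 reads, a level that corresponds to 0.0541 to 0.0665 FPKM here. Thus 9 of the 12 animals were at or under the floor of 3 reads and no fold is given. The exact permutation p was 0.329 for the mean log2(FPKM + 0.01), and treated replicate 6 alone held 17 of the 19 reads of its group. Leaving out treated replicate 6 gave an exact permutation p of 0.0390, with every remaining treated animal at 0 or 1 read, so that this value rests on counts at the floor. The gastric chains ATP4A and ATP4B had means of 0.029 and 0.033 FPKM.

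The V1 sector was led by its stalk subunit G, ATP6V1G1, at 299 ± 65.8 FPKM in the control and 284 ± 117 FPKM in the treated group (SD, n = 6 each). ATP6V1A, which carries the catalytic ATP-binding site, had 86.8, 95.8, 82.9, 68.8, 103 and 123 FPKM in control replicates 1 to 6. In treated replicates 1 to 6 it had 88.7, 84.8, 77.8, 75.1, 67.1 and 108 FPKM. In both groups replicate 6 was the highest animal, and only that treated animal exceeded the second highest control level. The means were 93.4 ± 18.7 and 83.6 ± 14.3 FPKM (SD, n = 6 each). The log2 difference of -0.15 had a standard error of 0.15 and a 95% interval from -0.47 to 0.17 (limma, adjusted p = 0.9997, exact permutation p = 0.342), which leaves room for a change from 0.72-fold to 1.12-fold.

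ATP6V1B2 encodes the ubiquitous form of the B subunit, which shares the nucleotide sites with ATP6V1A. Its control levels were 19.3, 20.7, 16.5, 17.3, 22.4 and 31.3 FPKM. Its treated levels were 21.9, 25.6, 20.6, 14.9, 18.7 and 15.9 FPKM. Control replicate 6 had the highest level of all animals and treated replicate 6 the second lowest. The means were 21.3 ± 5.38 and 19.6 ± 3.96 FPKM (SD, n = 6 each), and the log2 difference was -0.11 with a standard error of 0.17 and an interval from -0.48 to 0.26 (limma, adjusted p = 0.9997, exact permutation p = 0.565). Without both animals numbered 6 it was 0.07, with a standard error of 0.14.

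Most of the B subunit FPKM in these walls came from the paralogue ATP6V1B1, known from acid-secreting cells of the kidney and inner ear. Protein was not measured. ATP6V1B1 had 153 ± 27.2 FPKM in the control and 167 ± 49.3 FPKM in the treated group (SD, n = 6 each), and its log2 difference was 0.09 with a standard error of 0.18. Within single animals it exceeded ATP6V1B2 by 4.04-fold to 11.3-fold, with the lowest ratio in control replicate 6. It supplied 87.6% ± 3.72 of the B subunit FPKM in the control and 89.1% ± 2.20 in the treated animals (SD, n = 6 each). The ratio of both B subunit genes together to ATP6V1A was 1.90 ± 0.310 and 2.29 ± 0.675. For the C subunit, which joins V1 to V0, most FPKM likewise came from ATP6V1C2. It supplied 78.9% ± 6.01 and 80.1% ± 5.74 (SD, n = 6 each) of the sum of ATP6V1C1 and ATP6V1C2. ATP6V1C2 ranged from 22.0 to 88.6 FPKM between animals, the latter in treated replicate 6.

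ATP6V1E1, a subunit of the peripheral stalks, varied least of the 8 tested members. It had 96.4, 98.7, 95.2, 94.2, 104 and 79.4 FPKM in control replicates 1 to 6. In treated replicates 1 to 6 it had 96.7, 84.7, 100.1, 88.9, 101 and 119.9 FPKM. The lowest and the highest animal were control replicate 6 and treated replicate 6. The means were 94.6 ± 8.16 and 98.6 ± 12.3 FPKM (SD, n = 6 each), with a log2 difference of 0.06, a standard error of 0.10 and an interval from -0.17 to 0.28 (limma, adjusted p = 0.9997, exact permutation p = 0.571). Without both of these animals it was -0.05, with a standard error of 0.08. ATP6V1E2, the testis form, had a mean of 0.080 FPKM, and ATP6V1G2 and ATP6V1G3 had 0.208 FPKM and 0 FPKM.

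In the V0 sector, the proteolipid ATP6V0B was highest at a mean of 139 FPKM, followed by ATP6V0E1 at 106.5 FPKM and by ATP6V0D1. ATP6V0D1, which couples the central stalk to the proteolipid ring, had 57.9, 61.1, 54.9, 55.7, 73.0 and 44.8 FPKM in control replicates 1 to 6. In treated replicates 1 to 6 it had 67.3, 55.8, 59.5, 62.8, 65.5 and 49.8 FPKM. Replicate 6 was the lowest animal of each group. The means were 57.9 ± 9.18 and 60.1 ± 6.53 FPKM (SD, n = 6 each), with a log2 difference of 0.06, a standard error of 0.12 and an interval from -0.20 to 0.32 (limma, adjusted p = 0.9997, exact permutation p = 0.597). Its paralogue ATP6V0D2, known from osteoclasts and kidney, had a mean of 0.115 FPKM, and ATP6V0E2, the paralogue of ATP6V0E1, had 0.603 FPKM.

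ATP6V0A1 encodes an a subunit, which forms the proton path together with the proteolipid ring and directs the pump to its membrane. It had 22.8, 28.6, 16.0, 18.1, 28.5 and 41.1 FPKM in control replicates 1 to 6. In treated replicates 1 to 6 it had 37.7, 32.4, 22.7, 14.4, 17.3 and 24.5 FPKM. Levels ranged over 2.85-fold between the lowest and the highest animal, more than for the other 4 V-ATPase genes. The means were 25.9 ± 9.11 and 24.8 ± 8.84 FPKM (SD, n = 6 each), with a log2 difference of -0.06, a standard error of 0.26 and an interval from -0.63 to 0.50 (limma, adjusted p = 0.9997, exact permutation p = 0.823). Without both animals numbered 6 it was 0.07, with a standard error of 0.27.

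Of the subunits compared, the a subunit had the most mixed transcript make-up. ATP6V0A1 supplied 56.2% ± 8.41 of the summed FPKM of the 4 a subunit genes in the control and 55.8% ± 9.43 in the treated animals (SD, n = 6 each), and between 43.8% and 67.8% in single animals. ATP6V0A2, found mainly at the Golgi and endosomes, had a mean of 13.2 FPKM, and TCIRG1, the a subunit known from osteoclasts, had 5.67 FPKM. ATP6V0A4, which is known from renal intercalated cells, had a mean of 0.014 FPKM. Transcripts of ATP6V1B1 were therefore abundant in these walls, while those of ATP6V0A4, its usual partner in the kidney, were near 0.

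**Figure D3:**
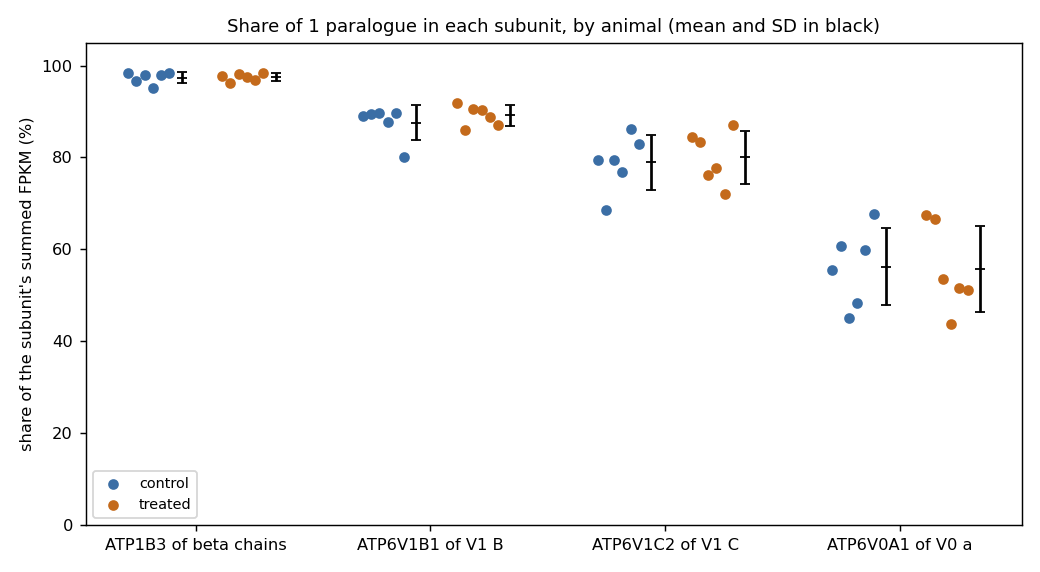
Share of the named gene in the summed FPKM of its subunit (y axis, percent, from 0) in each control (blue) and treated (orange) animal, with the mean and SD in black. ATP1B3 stays above 95% and ATP6V1B1 above 80% in every animal, while ATP6V0A1 ranges from 43.8% to 67.8%.

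The members were also ordered by their mean level. ATP1B3 lay above FXYD3 in 11 of 12 animals, FXYD3 above ATP6V1E1 in 12, ATP6V1A above ATP6V0D1 in 12, ATP6V0D1 above ATP6V0A1 in 12, and ATP6V1B2 above ATP1B1 in 12. The neighbours ATP6V1E1 and ATP6V1A, with overall means of 96.6 and 88.5 FPKM, kept this order in 10 of 12 animals. ATP6V0A1 and ATP6V1B2, with 25.3 and 20.4 FPKM, kept it in 9 of 12. For both of these pairs the ranges over animals overlapped widely. By mean FPKM, ATP1B3 lay above 98.0% of the tested genes, FXYD3 above 97.3% and ATP1B1 above 45.8%.

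Variation within the groups differed between members. On the log2 scale the pooled within-group SD was 0.15 for ATP6V1E1, 0.18 for ATP1B3 and 0.20 for ATP6V0D1. It was 0.49 for FXYD3, 0.51 for ATP6V0A1 and 0.52 for ATP1B1, while the median of all tested genes was 0.36. The widths of the intervals given above follow this order.

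**Figure D4:**
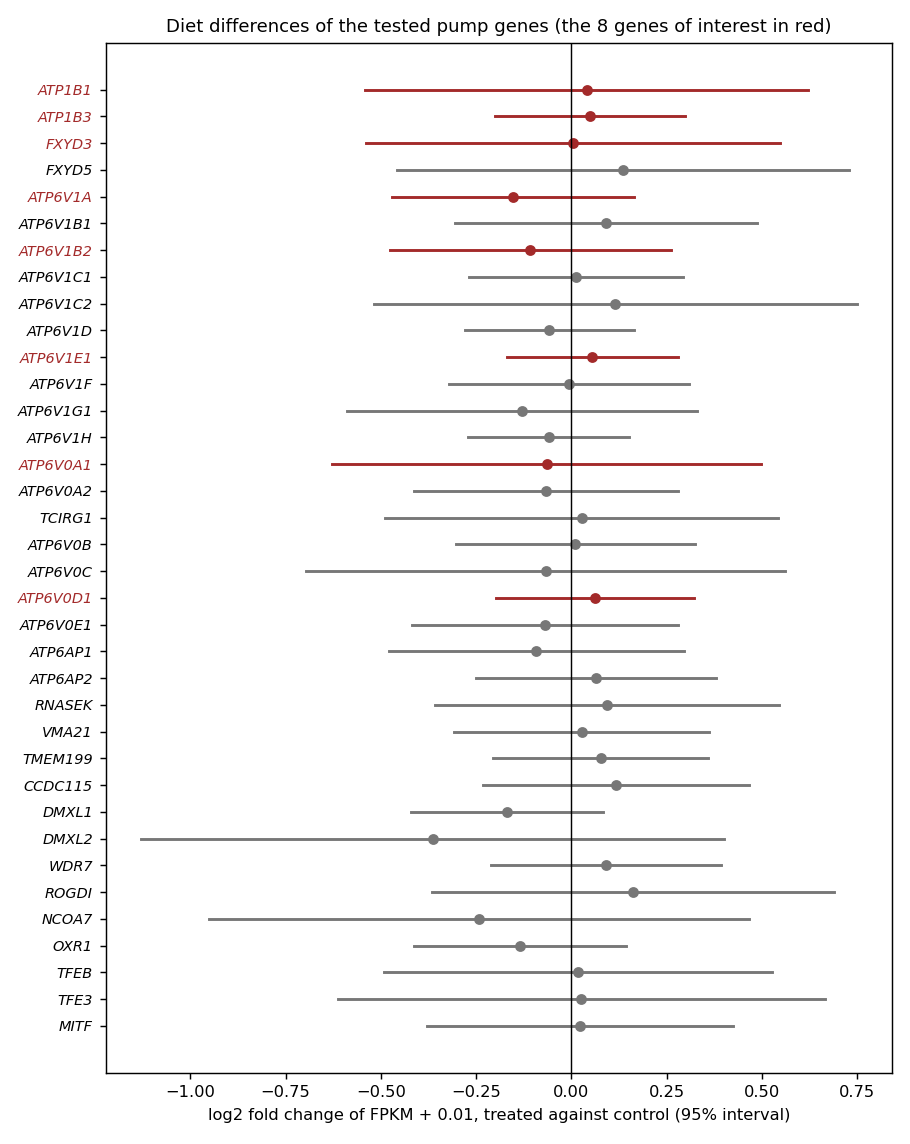
Log2 fold change of FPKM + 0.01 between treated and control animals (x axis) with its 95% interval from limma, for 36 of the 37 tested genes of the pump list, with the 8 tested members in red. Every interval shown includes 0, and the intervals of ATP1B1, FXYD3 and ATP6V0A1 are the widest of the members.

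The remaining genes of these pumps were read from a list of 58 genes, of which 57 were matched and 37 tested. Of these 37 genes, 0 had a nominal p-value below 0.05, compared with 1.24% of all tested genes, and 21 had a log2 difference above 0 and 16 below. The median log2 difference was 0.01 for the list, 0.02 for the 8 members and 0.01 for all genes tested. The 10 tested V1 genes had a median of -0.03 and the 10 tested V0 genes had a median of -0.03. Among the 9 tested assembly and regulation factors, DMXL1, a subunit of the complex that reassembles V1 with V0, had the smallest p-value of the list, with a log2 difference of -0.17, a standard error of 0.12 and a nominal limma p of 0.170 (adjusted p = 0.9997). VMA21, an assembly chaperone of V0, was the most abundant factor at a mean of 61.9 FPKM, ahead of DMXL1 at 22.2 FPKM and CCDC115 at 18.6 FPKM. DMXL2, ATP6AP1L and TLDC2 were the lowest, at 0.233, 0.062 and 0.022 FPKM. TFE3, TFEB and MITF, which drive lysosomal genes, had means of 9.96, 1.61 and 1.64 FPKM and log2 differences of 0.03, 0.02 and 0.02.

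The members did not vary together as a block across animals. After the group means were taken out, Pearson's r of log2(FPKM + 0.01) over the 12 animals ranged from -0.53 to 0.86 among the 28 pairs of tested members, and 14 pairs were above 0. The pairs share libraries and hence depth and tissue make-up, and r is given as a description. The highest value was that of ATP6V1B2 with ATP6V0A1 (r = 0.86), and ATP6V1A with ATP6V0A1 followed (r = 0.74). The lowest was that of ATP6V1B2 with ATP6V1E1 (r = -0.53). Of the 10 V-ATPase pairs, 5 were above 0 with a median of -0.05. Of all 66176760 pairs of tested genes with a mean of at least 1 FPKM, 34255723 were above 0, with a median of 0.02. Without both animals numbered 6, all 10 V-ATPase pairs were above 0, from 0.09 to 0.91 with a median of 0.39 over 10 animals. The negative values of the V-ATPase pairs thus rested on those animals. Among all 28 pairs of tested members, 20 were above 0 without both, from -0.38 to 0.91 with a median of 0.18. No share over all gene pairs was worked out without both animals.

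**Figure D5:**
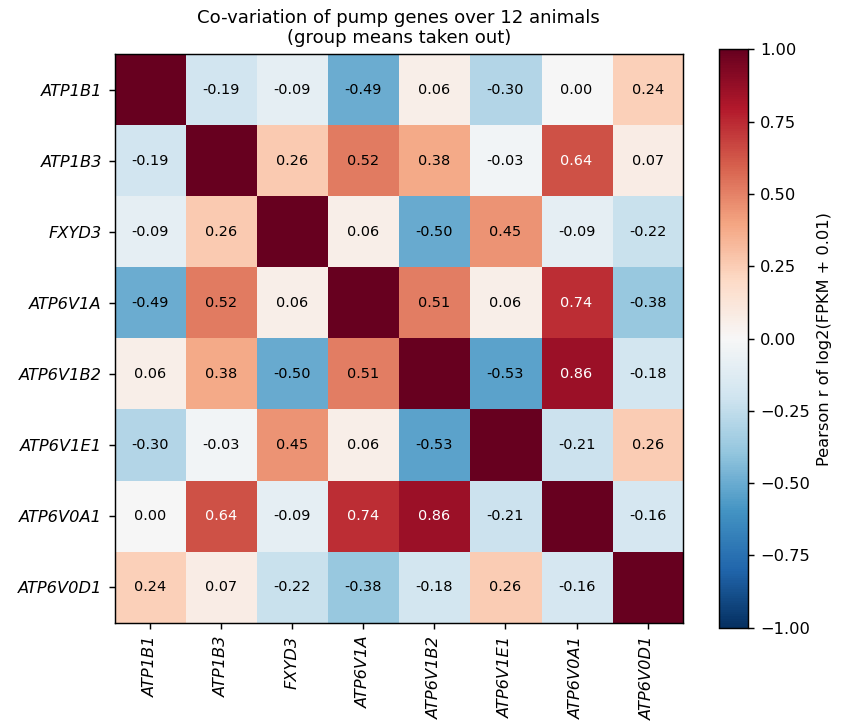
Pearson's r between tested members over the 12 animals after the group means were taken out (colour scale from -1 to 1, values printed in the cells). ATP6V1A, ATP6V1B2 and ATP6V0A1 have r from 0.51 to 0.86 with each other, and ATP6V1E1 and ATP6V0D1 have r from -0.53 to 0.06 with them. ATP1B3 has r of 0.64 with ATP6V0A1 and 0.52 with ATP6V1A. Without both animals numbered 6, which is not drawn, ATP6V0D1 had r of 0.48 with ATP6V1A.

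Marker levels moved with some members. Across the 12 animals, with group means taken out, the mean log2 FPKM of the epithelial markers had r of 0.71 with ATP1B1, 0.69 with ATP6V0D1 and 0.73 with ATP6V1B1, and -0.43 with ATP6V1A. Without both animals numbered 6 these values were 0.57, 0.31, 0.53 and 0.30, so that the sign for ATP6V1A turned. The mean of the smooth muscle and fibroblast markers had r of -0.59 with ATP1B1 and -0.60 with ATP6V0A1, and the latter was -0.86 without both animals numbered 6. Log2 counted fragments had r of -0.78 with ATP6V1B2 and 0.61 with ATP6V1E1, and these were -0.44 and -0.42 without both animals numbered 6. The part of cell make-up or depth in the levels of these genes was not tested.

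The genes most like each member in this variation were found among 11505 tested genes with a mean of at least 1 FPKM. For ATP6V0A1 they were NEO1 (r = 0.96), CHP1 (r = 0.95) and MYO6 (r = 0.95), and for ATP6V1B2 they were VPS35 (r = 0.95), MLLT10 (r = 0.95) and LOC112579717 (r = 0.92). ATP6V1A was most like MARVELD3 (r = 0.94), ZYG11B (r = 0.94) and LIPK (r = 0.93). ATP6V0D1 was most like COQ8B, ZNF576 and LOC112579077 (r from 0.90 to 0.92), and ATP6V1E1 most like AP4M1, LOC102410590 and TIMM29 (r from 0.84 to 0.86). For ATP1B3 they were LOC112581684, PPP2R5A and WDFY2 (r from 0.87 to 0.89), for FXYD3 CREB3, LOC112578652 and CCDC28B (r from 0.84 to 0.89), and for ATP1B1 LOC102409156, PPFIA3 and LOC102415099 (r from 0.83 to 0.90). No member was among the genes most like another member. These are the highest of 11505 values of r for each member, over only 12 animals. Such a choice favours high r, and the r that unrelated genes would reach was not worked out. The search was not repeated without the animals that stood apart by their principal component scores. The genes named are therefore given as a description only.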

How the data were processed

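Total RNA of ruminal wall was sequenced from 12 buffaloes, 6 control and 6 treated, with 1 stranded library per animal and no pooling, so that p-values measure the spread between animals. Per the labels and methods, the reads were trimmed (Trimmomatic 0.39), mapped to the UOA_WB_1 genome (STAR 2.5.2b) and assigned to genes on their strand (featureCounts 2.0.0). The authors deposited FPKM values, and the tool and gene lengths behind the FPKM are not given in the sources used here. Of 16 columns, 12 matched a sample label and 4 were not used. FPKM of a gene were whole multiples of 1 read in all 22972 genes above 0 (within 1e-06 reads), which gave reads and depth.

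The main test was limma 3.58.1 in R 4.3.3 on log2(FPKM + 0.01), with a variance trend and Benjamini-Hochberg adjustment over the 12642 genes with at least about 42 TMM-scaled reads in 1 animal, the threshold of the study's filter. Fold changes are on this log2 scale and understate those of low genes. Members were also tested by a two-sided exact permutation test over 924 assignments, whose smallest p is 0.00216. The 95% intervals of differences come from limma, and floors of reads cover counting error only.

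The members and lists were chosen with earlier results of these data known. The genes named are the members, their paralogues, the 3 highest and lowest genes of each sector, any listed gene with a nominal p-value below 0.05, and the 3 genes most like each member. Alternatives were pseudocounts of 0.1 and 1, other filters (all genes above 0, or 0.1 FPKM in 6 animals), TMM or median ratio scaling, robust variances, voom, marker covariates, the replicate number as a block, a rank-sum test and each animal left out. Leaving out both animals numbered 6 was added after seeing the data. The fit was tested on simulated data. Python 3.11.15, numpy 2.4.6, pandas 2.3.3, scipy 1.17.1 and matplotlib 3.10.9 were used. Some items of the list are not reported here. Of RefSeq, only names and neighbours of the NDDB_SH_1 assembly were used.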

Additional observations from a re-analysis of the deposited data

Results flagged for a closer look

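Among 20 groups of 6 animals examined (the 9 members and ATP6V1B1 in each diet), 1 held an animal far from the others, as chance gives in about 1 group of 20. It was ATP12A in treated replicate 6, at 0.312 FPKM (17 reads), while the next animal of the group was at 0.0194 FPKM (1 read). Treated replicate 6 also stood apart on the first principal component, and the gastric acid pump genes ATP4A and ATP4B were at or near 0 in it as in the other animals.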

How the results depend on the processing

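In all 24 alternatives 0 members had a nominal p-value below 0.05 and 0 genes had an adjusted one. The nominal count of 157 genes became 562 with all genes above 0, 301 with the FPKM filter, 291 with the smooth muscle and fibroblast covariate, 314 without both animals numbered 6, and 142 to 325 with 1 animal left out, the highest without treated replicate 6. With all genes above 0, 1 gene of the pump list, FXYD1, had a nominal p-value below 0.05 (log2 difference -2.07, limma adjusted p = 0.9998). As to pairing by label number, the numbers used are those of the sample descriptions. The sample titles number control replicate 6 and every treated animal otherwise, and pairing by the titles was not tested. Deviations of same-numbered animals correlated at a mean r of 0.21 (from -0.01 to 0.42), against -0.04 for others. Of 12 animals, 8 were closest to their own number. The labels name no litter, batch or day behind the numbers and not every same-numbered correlation was above 0.1, so the animals were not treated as pairs. The replicate block gave 322 nominal genes, 0 adjusted ones and 0 members. The median standard error over the tested genes was 0.154 with the block and 0.204 in the main fit. Any variation shared by same-numbered animals stays in the main standard errors and intervals.

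Of 192 refits of members, 163 kept direction and side and 29 turned direction, all with p above 0.05. The smooth muscle and fibroblast covariate gave -0.32 for ATP1B1, -0.017 for ATP1B3 and -0.081 for FXYD3 (log2 differences), and moved ATP6V0A1 from -0.064 to -0.42 and ATP6V1B2 from -0.11 to -0.25 without passing the test. The epithelial covariate gave -0.035 for ATP1B1 and -1.57e-05 for FXYD3, and median ratio scaling gave -6.23e-05 for FXYD3. Without both animals numbered 6, FXYD3 was at -0.24 (exact permutation p = 0.349), ATP6V1B2 at 0.066 (0.690), ATP6V1E1 at -0.052 (0.389) and ATP6V0A1 at 0.073 (0.802). The exact rank-sum test gave p = 0.818 for ATP1B3 and p = 0.937 for FXYD3, with group medians in the other direction. With 1 animal left out, log2 differences (exact permutation p) ranged from -0.079 to 0.20 (0.468 to 0.991) for ATP1B1, -0.030 to 0.088 (0.489 to 0.970) for ATP1B3, -0.15 to 0.15 (0.558 to 0.991) for FXYD3, -0.24 to -0.068 for ATP6V1A, -0.19 to 0.011 (0.325 to 0.948) for ATP6V1B2, -0.0030 to 0.097 (0.338 to 0.974) for ATP6V1E1, -0.20 to 0.084 (0.489 to 0.939) for ATP6V0A1 and -0.0087 to 0.13 (0.225 to 0.948) for ATP6V0D1. The exact permutation p of ATP12A crossed 0.05 without treated replicate 6 (p = 0.0390). The causes were not tested. Depth limits ATP12A and the lowest paralogues, which hold few reads.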
